A study of Mus musculus with 4 samples.

Results

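The genes of the integrated stress response and the unfolded protein response were examined for RNA polymerase II (Pol II) peaks in brain endothelial cells (ECs). The set holds 39 listed mouse genes, picked by a rule that names symbols and uses no measured value, of 21840 protein-coding genes in the annotation. All 39 were found. Pol II chromatin immunoprecipitation sequencing, which maps where the polymerase sits on DNA, was analysed in 4 libraries, 2 from old WT Cre mice and 2 from young EC-K4KO mice. All mice were C57BL/6J. The EC-K4KO mice carry floxed Klf4 alleles and a tamoxifen-inducible Cre driven by the VE-cadherin (CDH5) promoter, so that the deletion is not limited to ECs of the brain. The WT Cre mice carry the same Cre, and both groups received tamoxifen. Genotype and age differed together and cannot be told apart, and neither a young WT Cre nor an old EC-K4KO library was analysed here. The genotype was taken from the labels, since a Pol II peak does not check a deletion.

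Cells respond to misfolded protein, viral RNA and lack of amino acids or heme by phosphorylating the translation factor eIF2, which lowers general protein synthesis while the transcription factor ATF4 is translated more. In the endoplasmic reticulum (ER) the sensors PERK, IRE1 and ATF6 start the unfolded protein response, which raises chaperones, disulfide isomerases and the machinery of ER-associated degradation (ERAD). ECs secrete much protein, and in vascular tissue both responses are known from shear stress, hypoxia and oxidized lipids.

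Values for all 4 libraries are given below in 1 order: old WT Cre replicate 1, old WT Cre replicate 2, young EC-K4KO replicate 1, young EC-K4KO replicate 2. The peak caller counted between 22705175 and 65734178 fragments per library, and the lists held between 35638 and 235591 peaks. Young EC-K4KO replicate 2 stood apart, with the fewest fragments and the most peaks. Each library was called on its own, so the number of genes with a peak can depend on the length of its list, but not on that alone. Lists of 78851, 39674 and 35638 peaks gave a promoter peak at 25.6, 24.5 and 10.7% of all genes. A missing peak means that no peak was called, not that Pol II was absent. Of 10 endothelial markers, 6, 6, 1 and 7 had a promoter peak (60, 60, 10 and 70%). Over all protein-coding genes the shares were 25.6, 24.5, 10.7 and 67.6%, so the markers did not stand out in the young EC-K4KO libraries. The tight junction gene Ocln had one in all 4 libraries, Cdh5, Kdr and Flt1 in 3, and Pecam1 and Tek in none. Of 25 markers of neurons, astrocytes, microglia, pericytes and oligodendrocytes, 5, 3, 3 and 17 had one. Among them the pericyte marker Abcc9 had one in 3 libraries, both young EC-K4KO libraries included. The part of other cell types in the results was not tested.

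Promoter sequences of the genes that the results turn on are shown first, to let the peaks be read against them. Each runs from 250 bases before to 50 bases after the RefSeq transcription start site (TSS) on GRCm38.p6, the build of the peak lists. Capitals mark a match to 1 of 4 response elements that are defined below. Gadd45a, a stress-induced regulator of growth arrest, is shown because it was the only listed gene with a promoter peak in every library under the main rule given below. Ppp1r15a encodes GADD34, the stress-induced subunit that directs a phosphatase to eIF2, and its protein was stained in the study. Atf4 and Ddit3, which encodes CHOP, are the central transcription factors of the response. Gadd45a lies on the minus strand at chr6:67037358-67037657 and Ppp1r15a on the minus strand at chr7:45526219-45526518. Atf4 lies on the plus strand at chr15:80254934-80255233 and Ddit3 on the plus strand at chr10:127290543-127290842.
Gadd45a: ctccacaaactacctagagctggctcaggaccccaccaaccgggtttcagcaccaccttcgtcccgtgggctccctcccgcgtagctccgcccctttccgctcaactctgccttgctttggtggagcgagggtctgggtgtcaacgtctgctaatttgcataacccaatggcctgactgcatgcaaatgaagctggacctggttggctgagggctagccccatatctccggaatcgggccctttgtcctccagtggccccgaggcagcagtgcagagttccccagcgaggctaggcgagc
Ppp1r15a: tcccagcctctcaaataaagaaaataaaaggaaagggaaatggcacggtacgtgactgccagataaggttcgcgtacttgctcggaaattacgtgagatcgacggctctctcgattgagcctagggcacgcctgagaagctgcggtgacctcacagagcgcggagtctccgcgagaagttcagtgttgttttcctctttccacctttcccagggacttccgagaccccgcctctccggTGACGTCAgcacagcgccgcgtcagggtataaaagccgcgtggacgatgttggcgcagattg
Atf4: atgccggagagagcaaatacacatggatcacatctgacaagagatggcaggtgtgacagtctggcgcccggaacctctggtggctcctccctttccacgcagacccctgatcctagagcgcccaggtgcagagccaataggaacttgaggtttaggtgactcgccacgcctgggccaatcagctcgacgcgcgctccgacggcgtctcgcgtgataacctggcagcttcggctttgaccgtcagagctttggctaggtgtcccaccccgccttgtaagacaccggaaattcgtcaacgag
Ddit3: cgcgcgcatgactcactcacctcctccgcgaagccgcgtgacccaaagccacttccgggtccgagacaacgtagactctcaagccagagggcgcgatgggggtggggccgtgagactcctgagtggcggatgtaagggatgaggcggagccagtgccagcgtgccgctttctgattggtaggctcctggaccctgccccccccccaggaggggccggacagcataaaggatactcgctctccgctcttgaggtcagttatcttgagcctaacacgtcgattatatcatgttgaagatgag
The Atf4 peaks covered 214 bases of this stretch in old WT Cre replicate 2 and 25 bases in young EC-K4KO replicate 2, and the Ddit3 peak of young EC-K4KO replicate 2 covered 290 bases. The peaks of Gadd45a covered at most 16 bases of it and those of Ppp1r15a none, since they lay downstream of the TSS.

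The first question was how often the listed genes carried a promoter peak, defined as a peak overlapping the 1500 bp on either side of a TSS of a protein-coding transcript. In old WT Cre replicate 1, 14 of 39 genes had one (35.9%, 95% exact Clopper-Pearson interval 21.2 to 52.8), beside 25.6% of all protein-coding genes. In old WT Cre replicate 2, 13 genes had one (33.3%, 19.1 to 50.2), beside 24.5% of all genes. The old WT Cre libraries held about the same number at this threshold, but with stricter rules replicate 1 kept 4 genes and replicate 2 kept 10 to 13. With a fold enrichment of at least 4, 11.7 and 21.4% of all genes kept a promoter peak in these libraries. With a q-value of at most 1e-05, 15.1 and 13.4% of all genes kept a promoter peak. In young EC-K4KO replicate 1, 5 genes had one (12.8%, 4.30 to 27.4), beside 10.7% of all genes. In young EC-K4KO replicate 2, 31 genes had one (79.5%, 63.5 to 90.7), beside 67.6% of all genes. The young EC-K4KO libraries were the lowest and the highest of the 4 with the lists as deposited. With lists of equal length the counts were 4, 13, 5 and 11, so that the old WT Cre libraries were the lowest and the highest, while over all genes the shares were 11.8, 22.6, 10.7 and 27.7% and the young EC-K4KO libraries remained so. The share of all genes lay within the interval of the listed genes in each library, and these intervals cover counting error only, with genes of a library that are not independent.

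The listed genes are shorter than most, with a median length of 10507 bp against 17373 bp, and their promoters are richer in CpG. The ratio of observed to expected CpG in the 300 bases around the outermost TSS had a median of 0.770 in the listed genes and 0.552 in all genes. It was at least 0.6 in 32 listed genes (82.1%), beside 46.4% of all genes. All genes were therefore also weighted to the lengths, or to the CpG ratios, of the listed genes. Weighted to gene length, the share of all genes with a promoter peak was 23.6, 22.4, 9.68 and 64.8% in the 4 libraries. Weighted to the CpG ratio it was 31.4, 33.1, 13.0 and 81.4%, which stands for 12.2, 12.9, 5.08 and 31.8 of 39 genes where 14, 13, 5 and 31 were counted. The listed genes thus had a promoter peak 1.14, 1.01, 0.985 and 0.976 times as often as all genes of like CpG ratio. With stricter rules for a peak the share in old WT Cre replicate 1 turned from above to below that of all genes, at 10.3% against 15.1% with a q-value of at most 1e-05, and that of young EC-K4KO replicate 1 did so too, at 2.56% against 3.36%. With a fold enrichment of at least 4 these shares were 10.3% against 11.7% and 5.13% against 6.56%. Other rules moved the shares apart. With the stricter q old WT Cre replicate 2 had 25.6% against 13.4%, and with a window of 500 bp the listed genes had a promoter peak 1.68, 1.54, 1.70 and 1.37 times as often as all genes in the 4 libraries. With a window of 3000 bp these ratios were 1.06, 1.35, 0.908 and 1.20, so that young EC-K4KO replicate 1 again lay below all genes.

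**Figure D1:**
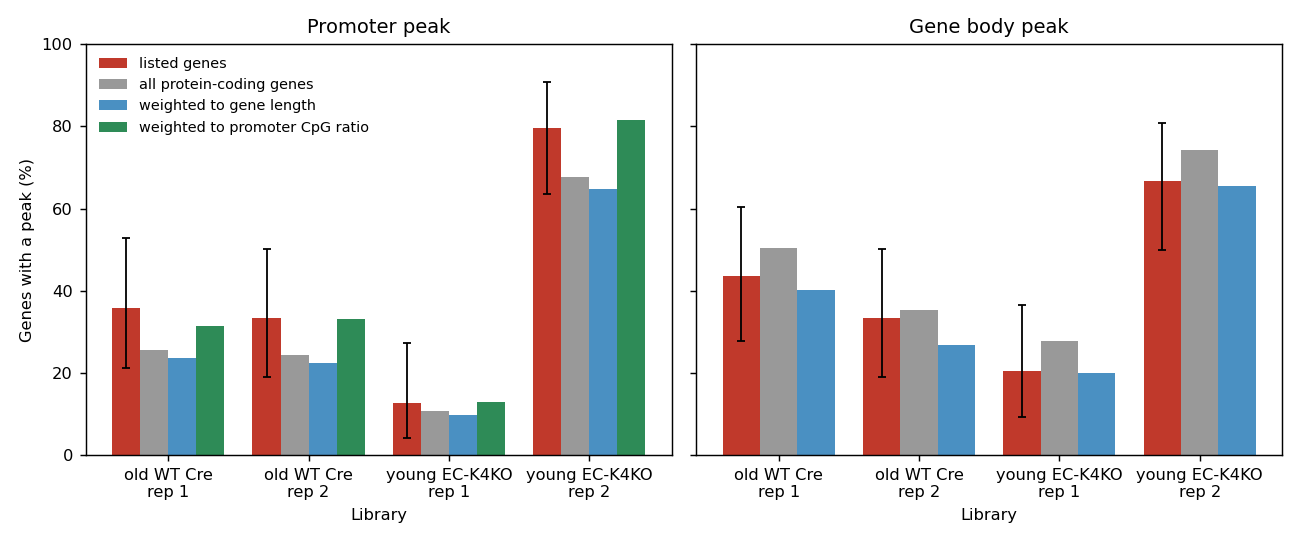
Share of genes with a promoter peak (left) and with a gene body peak (right), in percent, in each of the 4 libraries. Red bars are the 39 listed genes with 95% exact intervals, grey bars all protein-coding genes, blue bars all genes weighted to the gene lengths of the listed genes and green bars those weighted to their promoter CpG ratios; the grey, blue and green bars lie within the red intervals, and young EC-K4KO replicate 2 is the highest library in every set.

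Next, the groups were compared. The mean number of listed genes with a promoter peak was 13.5 ± 0.707 (SD, n = 2) in old WT Cre and 18.0 ± 18.4 (SD, n = 2) in young EC-K4KO. The difference of 4.50 genes was smaller than the spread between the young EC-K4KO libraries. With 2 libraries against 2, the smallest p an exact permutation test can give is 0.33. In both old WT Cre libraries a promoter peak was found at 6 listed genes (15.4%), beside 10.1% of all genes, and in both young EC-K4KO libraries at 5 (12.8%), beside 9.16%. The 6 were Eif2ak1, Eif2b4, Gadd45a, Herpud1, Edem1 and Derl2, and the 5 were Eif2s1, Ppp1r15b, Atf3, Gadd45a and Pdia3. With the stricter q, a fold enrichment of at least 4 or lists of equal length, the young EC-K4KO share fell just below that of all genes. Gadd45a alone was found in all 4 libraries (2.56%), beside 2.23% of all genes. With a window of 3000 bp Atf3 was found in all 4 libraries too. Eif2s1 and Pdia3 had a promoter peak in both libraries of young EC-K4KO but in none of old WT Cre, 2 of 39 genes (5.13%) beside 3.13% of all genes. Both were lost from young EC-K4KO replicate 1 with the stricter q and with a fold enrichment of at least 4, and Pdia3 from replicate 2 with lists of equal length. The opposite pattern was found at 0 listed genes and at 0.783% of all genes, and no peak in any library at 5 listed genes (12.8%) beside 25.4% of all genes. These 5 were Eif2ak3, Eif2b5, Chac1, Atf6 and Atf6b. With a window of 3000 bp young EC-K4KO replicate 2 held a peak at Eif2ak3, Chac1 and Atf6b.

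Of the other genes, 14 had a promoter peak in 1 library, 12 in 2 and 7 in 3 (35.9, 30.8 and 17.9%), beside 36.2, 25.2 and 10.9% of all genes. Among the 14, young EC-K4KO replicate 2 was the library for 11, old WT Cre replicate 1 for Nupr1 and Xbp1, and old WT Cre replicate 2 for Asns. Libraries shared listed genes within and across groups. Of the 14 listed genes of old WT Cre replicate 1, 6 were found in replicate 2 (42.9%, beside 39.5% of all genes), which is 46.2% of the 13 of replicate 2. All 5 genes of young EC-K4KO replicate 1 were found in replicate 2 (100%, beside 85.9% of all genes), but these are 16.1% of the 31 of replicate 2. Across groups, young EC-K4KO replicate 2 held 12 of the 14 genes of old WT Cre replicate 1 (85.7%, beside 83.8% of all genes) and 12 of the 13 of replicate 2 (92.3%, beside 88.5%), which is 38.7% of its own 31 in each case. At 19 of the 20 listed genes with a promoter peak in at least 2 libraries, peaks of different libraries overlapped. With the pairs of libraries counted for each gene, 33 of 39 pairs did so. The same count over all genes was not made, so this is no trait of the listed genes. The peaks of Trib3, 1 in each of 2 libraries, did not overlap.

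**Figure D2:**
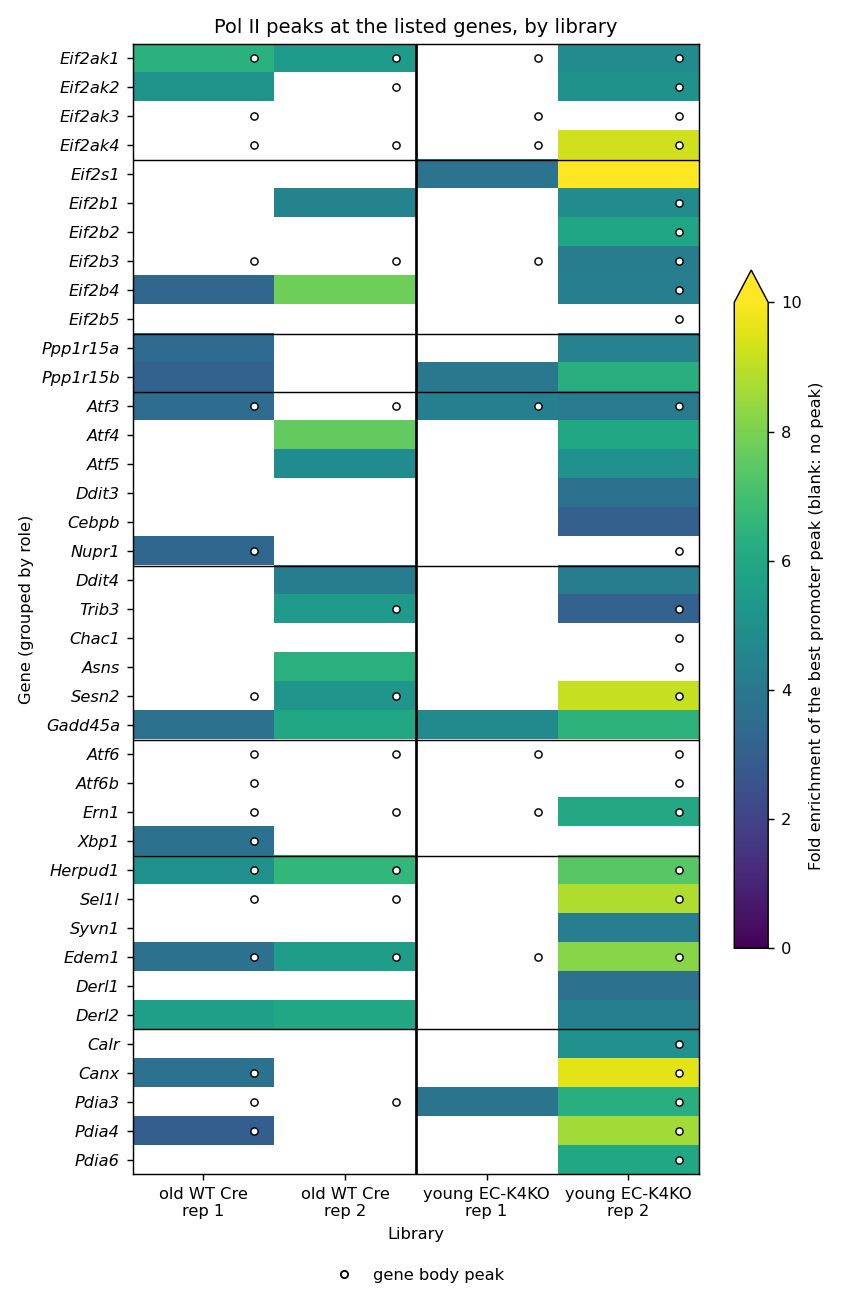
Presence of Pol II peaks at the 39 listed genes (rows, grouped by role) in the 4 libraries (columns). Colour gives the fold enrichment of the best promoter peak, blank cells have no promoter peak and open circles mark a gene body peak; the column of young EC-K4KO replicate 2 is nearly full with 31 genes, that of young EC-K4KO replicate 1 holds 5, and the row of Gadd45a alone is filled throughout.

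The kinases that phosphorylate eIF2 each sense a different stress. Eif2ak1 (HRI, the heme-regulated kinase, chromosome 5, 143817788 to 143904251, plus strand) had a promoter peak in 3 libraries. Its fold enrichment, the ratio of the pileup to the local background of the same library, was 6.38 and 5.47 in old WT Cre, while young EC-K4KO replicate 2 had 4.81. The pileup, the number of fragments at the summit, was 34, 17 and 17. Young EC-K4KO replicate 1 had none, so old WT Cre and young EC-K4KO were not separated by this gene. The first of these summits lay in a coding exon, 199 bp downstream of the TSS. Eif2ak2 (PKR, the kinase that binds double-stranded RNA) had a promoter peak with a fold enrichment of 5.16 (old WT Cre replicate 1) and 1 of 5.08 (young EC-K4KO replicate 2). Eif2ak4 (GCN2, which senses uncharged transfer RNA) had one in young EC-K4KO replicate 2 alone, with a fold enrichment of 9.28. Eif2ak3, which encodes the ER sensor PERK, had no promoter peak, but had peaks within the gene in 3 libraries.

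eIF2 is the substrate of these kinases, and eIF2B is the exchange factor that phosphorylated eIF2 blocks. Eif2s1 encodes the phosphorylated subunit (chromosome 12, 78861819 to 78887010, plus strand). Its promoter peak in young EC-K4KO replicate 2 had a fold enrichment of 13.2 and a pileup of 44, the highest among the best promoter peaks of the listed genes, with a summit 286 bp downstream of the TSS. In young EC-K4KO replicate 1 the peak had a fold enrichment of 3.82 and a pileup of 11, and neither old WT Cre library had one. A second peak in young EC-K4KO replicate 2, with a fold enrichment of 6.28 and a pileup of 21, overlapped that of replicate 1, whereas the tallest did not. The summit in replicate 1 lay 96 bp upstream of Eif2s1 and 85 bp from the TSS of Atp6v1d, a gene on the opposite strand that starts 181 bp away, so it cannot be assigned to either gene. Among the genes of eIF2B, Eif2b4 had a promoter peak in 3 libraries, with fold enrichments of 3.32 and 7.79 in old WT Cre, and of 4.28 in young EC-K4KO replicate 2. The old WT Cre summits lay within 209 bp of a TSS. The best peak of young EC-K4KO replicate 2 lay 1414 bp downstream in a coding exon, and a second one, with a fold enrichment of 3.89 and a summit 53 bp from a TSS, overlapped both old WT Cre peaks. Eif2b1 had a promoter peak in replicate 2 of each group, Eif2b2 and Eif2b3 in young EC-K4KO replicate 2 alone, and Eif2b5 in none.

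Both regulatory subunits of the eIF2 phosphatase had promoter peaks, and old WT Cre replicate 2 held neither. Ppp1r15a (chromosome 7, 45522916 to 45526268, minus strand) had a peak with a fold enrichment of 3.49 and a pileup of 21 in old WT Cre replicate 1, and with 4.43 and 20 in young EC-K4KO replicate 2. These summits lay in the coding exon 835 and 879 bp downstream of the nearest TSS. With a window of 500 bp, old WT Cre replicate 1 no longer held a peak at this gene, while young EC-K4KO replicate 2 kept one through a second peak nearer to the TSS. The call in old WT Cre replicate 1 was also lost with the stricter q, with a fold enrichment of at least 4 and with lists of equal length, and the last of these left no promoter peak at Ppp1r15a in any library. Ppp1r15b, the constitutive subunit (chromosome 1, 133131143 to 133139783, plus strand), had peaks in 3 libraries. Their fold enrichments were 3.15 in old WT Cre replicate 1, and 4.0 and 6.26 in young EC-K4KO. The best summits of all 3 lay in the untranslated part of the first exon, between 71 and 179 bp downstream of the TSS, and the peak of young EC-K4KO replicate 2 was 1051 bp wide.

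Of the 6 transcription factors of the integrated stress response, 2, 2, 1 and 5 had a promoter peak in the 4 libraries, close to the 25.6, 24.5, 10.7 and 67.6% of all genes. Atf4 (chromosome 15, 80255184 to 80257541, plus strand) had one in replicate 2 of each group, with a fold enrichment of 7.61 and a pileup of 24 in old WT Cre and of 5.99 and 30 in young EC-K4KO. Both summits lay in the untranslated first exon, 108 and 235 bp downstream of the TSS, and 1 library of each group had no peak. Ddit3, a proapoptotic target of ATF4, had a promoter peak in young EC-K4KO replicate 2 alone, with a fold enrichment of 3.74 and a summit 280 bp upstream. Atf3, which ATF4 induces, has more than 1 TSS (chromosome 1, 191170296 to 191218039, minus strand). The best peaks in young EC-K4KO replicates 1 and 2, with fold enrichments of 4.31 and 4.15, had summits 198 bp downstream and 301 bp upstream of the inner TSS. The peak in old WT Cre replicate 1, with a fold enrichment of 3.57, overlapped the window of the outer TSS and had its summit 1544 bp downstream of it. Both young EC-K4KO libraries also held a peak in this outer window, with fold enrichments of 4.09 and 3.93, but neither overlapped that of old WT Cre. The call in old WT Cre replicate 1 was lost with the stricter q, a fold enrichment of at least 4 and lists of equal length. It was also lost with a window of 500 bp and when the summit itself had to lie in the window. With a window of 3000 bp old WT Cre replicate 2 gained a peak at Atf3. Atf5 had a promoter peak in replicate 2 of each group, and the summit in old WT Cre lay nearer to a TSS of Il4i1 on the opposite strand, at 75 bp. Cebpb, a partner of ATF4, had one in young EC-K4KO replicate 2 alone, and the stress-induced Nupr1 in old WT Cre replicate 1 alone.

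Among the targets of this response, Gadd45a (chromosome 6, 67035096 to 67037457, minus strand) had a promoter peak with fold enrichments of 3.76, 5.97, 4.78 and 6.48 in the 4 libraries. The pileup was 19, 15, 14 and 16 fragments, or 0.289, 0.546, 0.397 and 0.705 per 1000000 fragments of the library. The tallest peak of each library had a pileup equal to 14.6, 15.3, 3.36 and 1.73% of its fragments. The divisor was thus unlike between the groups, and its effect on the scaled value was not tested. On the scaled value replicate 2 was the higher in each group, and the groups overlapped. The scaled pileup was 0.418 ± 0.182 (SD, n = 2) in old WT Cre and 0.551 ± 0.217 (SD, n = 2) in young EC-K4KO, a difference of 0.133 that was smaller than the spread between replicates (p = 0.6667 by an exact permutation test, two-sided, a design that cannot pass 0.05). The values come from different places, since these best peaks overlapped in 2 of the 6 pairs of libraries. Without young EC-K4KO replicate 2 the difference was -0.0203. Its presence in all 4 libraries was lost under every stricter rule run. The peak in old WT Cre replicate 1 was lost with the stricter q, with a fold enrichment of at least 4 and with lists of equal length, that in young EC-K4KO replicate 1 with the stricter q and that in young EC-K4KO replicate 2 with lists of equal length. The best summits of old WT Cre replicate 2 and young EC-K4KO replicate 1 lay 555 and 572 bp downstream of a TSS in a coding exon, and those of the other libraries 40 and 109 bp downstream.

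Of the 5 other targets, Ddit4 (an inhibitor of mTORC1), Trib3 (a pseudokinase that binds ATF4) and Sesn2 (a leucine sensor) had a promoter peak in replicate 2 of each group. Asns (asparagine synthetase) had one in old WT Cre replicate 2 alone, with a fold enrichment of 6.34. Chac1, which degrades glutathione, had none. Of all 6 targets, Gadd45a included, 1, 5, 1 and 4 had a promoter peak in the 4 libraries. Old WT Cre replicate 1 and young EC-K4KO replicate 1 held a promoter peak at none of the 5 genes without Gadd45a, beside 25.6 and 10.7% of all genes. Replicate 2 of the groups held 4 and 3 of them, beside 24.5 and 67.6%. The highest value was that of Sesn2 in young EC-K4KO replicate 2, with a fold enrichment of 9.13, beside 5.22 in old WT Cre replicate 2. At Ddit4 both summits lay in coding sequence, 950 and 904 bp downstream of the TSS, with fold enrichments of 4.25 and 4.23.

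The ER sensors and their factors held few promoter peaks, with 1, 0, 0 and 1 of 4 genes, a number too small to set against the 25.6, 24.5, 10.7 and 67.6% of all genes. Ern1 (IRE1, the kinase and RNase, chromosome 11, 106394650 to 106487852, minus strand) had one in young EC-K4KO replicate 2 alone, with a fold enrichment of 6.02 and a summit in an intron 477 bp downstream of a TSS. Xbp1, whose mRNA IRE1 splices, had one in old WT Cre replicate 1 alone, with a fold enrichment of 3.76 and a summit 1671 bp downstream of the nearest TSS in a coding exon. A second peak of that library, with a fold enrichment of 3.57, had its summit 42 bp from a TSS. Atf6 and Atf6b, ER membrane proteins that release a transcription factor when cleaved in the Golgi, had none. Atf6 instead held gene body peaks in every library.

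All 6 genes of ERAD had a promoter peak in young EC-K4KO replicate 2, 3 of them in each old WT Cre library and 0 in young EC-K4KO replicate 1. Over all genes the shares were 67.6% in young EC-K4KO replicate 2 and 25.6, 24.5 and 10.7% in the others. The 3 were the same in both old WT Cre libraries, and 10.1% of all genes had a promoter peak in both. Edem1 lost its peak in old WT Cre replicate 1 with the stricter q, a fold enrichment of at least 4 and lists of equal length. Herpud1 (an ER membrane scaffold of the degradation complex, chromosome 8, 94386438 to 94395377, plus strand) had fold enrichments of 5.01 and 6.61 in old WT Cre, and of 7.39 in young EC-K4KO replicate 2. The best summits were apart, 143 bp downstream, 281 bp upstream and 1380 bp upstream of the TSS. A second peak of young EC-K4KO replicate 2, with a fold enrichment of 5.72, overlapped the peaks of both old WT Cre libraries. Edem1, which helps to extract misfolded glycoproteins (chromosome 6, 108828641 to 108859356, plus strand), had 3.76, 5.59 and 8.21. Derl2, a membrane component of the retrotranslocation channel (chromosome 11, 71007164 to 71019841, minus strand), had 5.63, 5.97 and 4.32, with summits 145, 176 and 360 bp downstream of a TSS. Sel1l, Syvn1 and Derl1, further parts of the ubiquitin ligase and channel, had a promoter peak in young EC-K4KO replicate 2 alone.

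Of the lectin chaperones and disulfide isomerases, which fold glycoproteins and form disulfide bonds, 2, 0, 1 and 5 of 5 had a promoter peak, beside 25.6, 24.5, 10.7 and 67.6% of all genes. Pdia3 (chromosome 2, 121413775 to 121438687, plus strand) had one in both young EC-K4KO libraries, with fold enrichments of 3.83 and 6.25 and pileups of 12 and 16. A TSS of Catsper2 lies 17 bp away on the opposite strand, and the summit of replicate 2 was nearer to it, so the peaks cannot be assigned to either gene. Canx (calnexin) had fold enrichments of 3.76 and 9.58, and Pdia4 of 3.0 and 8.62, each first for old WT Cre replicate 1 and then for young EC-K4KO replicate 2. Calr (calreticulin) and Pdia6 had a promoter peak in young EC-K4KO replicate 2 alone. In all, 7 listed genes have the TSS of another coding gene on the opposite strand within 1500 bp, namely Eif2s1, Eif2b1, Eif2b4, Ppp1r15a, Atf5, Derl2 and Pdia3. Without them, 11, 9, 3 and 24 of 32 genes had a promoter peak (34.4, 28.1, 9.38 and 75%), beside 25.6, 24.5, 10.7 and 67.6% of all genes, so that young EC-K4KO replicate 1 turned from above to below that share.

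The height of the peaks was near that of other genes. The median fold enrichment of the best promoter peak was 3.76, 5.59, 4.0 and 5.08 in the listed genes and 3.94, 5.0, 4.16 and 5.81 in all genes with one in the 4 libraries. Pileups at these best promoter peaks ranged from 8 to 44 fragments over the 4 libraries. Fold enrichment and pileup depend on the depth and background of each library, and no group difference was tested on them apart from Gadd45a. The summit lay downstream of the nearest TSS of the gene in 13 of 14 genes in old WT Cre replicate 1 (92.9%, beside 63.9% of all genes), in 11 of 13 in old WT Cre replicate 2 (84.6%, beside 67.6%), in 3 of 5 in young EC-K4KO replicate 1 (60.0%, beside 56.1%) and in 19 of 31 in young EC-K4KO replicate 2 (61.3%, beside 62.7%). The median signed position of the summit, where upstream places count as negative, was 178, 166, 71 and 49 bp downstream, beside 138, 131, 52 and 99 bp in all genes.

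**Figure D3:**
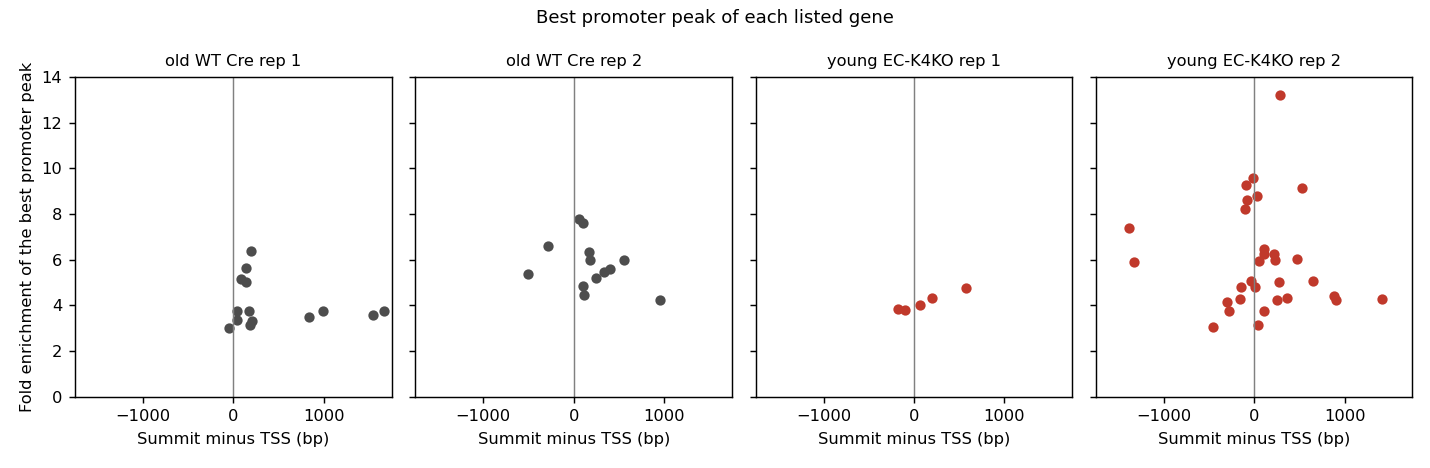
Fold enrichment of the best promoter peak of each listed gene (vertical axis) against the distance of its summit from the nearest TSS of the gene in bp (horizontal axis, positive downstream), 1 panel per library and 1 point per gene. Most summits of the old WT Cre libraries (grey) lie downstream, 13 of 14 and 11 of 13, and the highest point is Eif2s1 at 13.2 in young EC-K4KO replicate 2 (red).

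Pol II within the gene was examined next, as peaks that overlap the gene outside its TSS windows. Of 172 such peaks, 4 also touched a TSS window and are counted as promoter peaks too, and for Xbp1 this was the only gene body peak. Such a peak was found at 17, 13, 8 and 26 of 39 listed genes (43.6, 33.3, 20.5 and 66.7%) in the 4 libraries. Over the 20482 genes that have a body outside these windows the shares were 50.3, 35.4, 27.8 and 74.3%, and weighted to gene length they were 40.2, 26.8, 19.9 and 65.4%. The listed genes thus lay below all genes and above the length-weighted share in each library, with both inside the 95% exact intervals, which ran from 27.8 to 60.4, from 19.1 to 50.2, from 9.30 to 36.5 and from 49.8 to 80.9%. The group means were 15.0 ± 2.83 genes (SD, n = 2) in old WT Cre and 17.0 ± 12.7 (SD, n = 2) in young EC-K4KO, a difference smaller than the spread between replicates.

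In all 4 libraries a gene body peak was found at 7 listed genes (17.9%), beside 17.0% of all genes. They were Eif2ak1, Eif2ak4, Eif2b3, Atf3, Atf6, Ern1 and Edem1. At 12 listed genes there was none in any library (30.8%), beside 21.0% of all genes, among them the short Atf4, Ddit3, Ddit4, Cebpb and Gadd45a. The bodies of the listed genes span 938 kb and held 38, 18, 12 and 104 peaks, or 4.05, 1.92, 1.28 and 11.1 per 100 kb. All genes held 3.38, 1.56, 1.25 and 9.89 per 100 kb. Atf6, the longest listed gene at 163098 bp (chromosome 1, 170704674 to 170867771, minus strand), held 5, 1, 2 and 15 peaks. This is 3.09, 0.619, 1.24 and 9.28 per 100 kb, below the value of all genes in each library. Of 157 regions of merged gene body peaks, 143 were found in 1 library, 13 in 2 and 1 in 3. Young EC-K4KO replicate 2 held 104 of these peaks, and the same count over all genes was not made. How rarely peaks recurred can therefore not be called a trait of the listed genes. The region found in 3 libraries is in an intron of Atf6, at chr1:170771528-170771877, and was missed by young EC-K4KO replicate 1 alone. The tallest peak at any listed gene lay in an intron of Pdia3 and was picked after its values were seen. At chr2:121436557-121436721 it was called in replicate 2 of each group, with a fold enrichment of 16.6 and a pileup of 45 for old WT Cre, of 18.4 and 62 for young EC-K4KO, and the summit at the same base. No peak was called there in replicate 1 of either group.

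**Figure D4:**
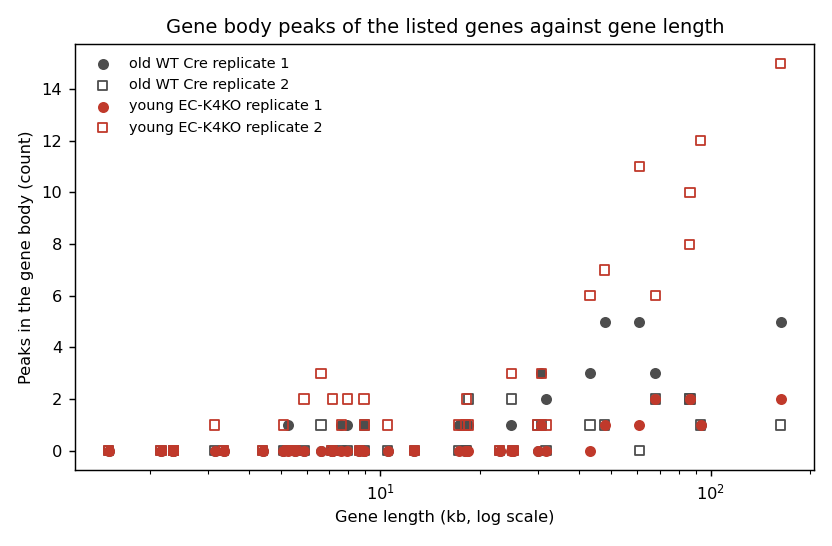
Number of gene body peaks of each listed gene (vertical axis) against gene length in kb (horizontal axis, log scale). Each gene has 1 symbol per library, filled for replicate 1 and open for replicate 2, grey for old WT Cre and red for young EC-K4KO; the longest gene, Atf6, has 15 peaks in young EC-K4KO replicate 2 and 1 to 5 in the other libraries.

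The promoters were then searched for the response elements of the pathway on both strands. A RefSeq promoter was found for 35 of the 39 genes, all but Eif2b3, Ppp1r15b, Atf6 and Derl1. The C/EBP-ATF response element, bound by ATF4 with a C/EBP partner, was searched as TGATGNAA and was found at 6 listed genes (17.1%), beside 4.0% of 16515 genes. The ER stress response element, bound by ATF6 with NF-Y, was searched as CCAAT and CCACG with 9 bases between them and was found at 4 listed genes (11.4%), beside 0.170% of genes. These are a description of the list, which holds known targets of both elements. The cAMP response element TGACGTCA was found at 1 listed gene (2.86%), Ppp1r15a, beside 2.64% of genes. The unfolded protein response element TGACGTGG was found at 0 listed genes and at 0.860% of genes. Each site is shown in capitals with the 8 bases on either side, on the strand of the gene, first for the C/EBP-ATF response element and then for the ER stress response element.
Atf3: tctcgcacTTGCATCAccaagtcc
Nupr1: gggccagaTTGCATCAgacagggc
Trib3: gctcaggtTTACATCAgccgggcg
Chac1: ccctgccgTTGCATCActcctgcc
Asns: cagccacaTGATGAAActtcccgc
Herpud1: acggcgggTTGCATCAgcccgcac
Syvn1: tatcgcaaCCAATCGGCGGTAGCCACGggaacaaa
Calr: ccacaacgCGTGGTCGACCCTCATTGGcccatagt
Canx: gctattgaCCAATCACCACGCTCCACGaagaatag
Pdia6: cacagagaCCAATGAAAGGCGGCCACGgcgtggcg
The sites of Atf3, Nupr1, Chac1 and Herpud1 have the same 8 letters, between 110 and 193 bases upstream of the TSS. Those of Trib3 and Asns differ at the open position. The C/EBP-ATF site of Herpud1, with its flanks at chr8:94386309-94386332, lay whole within promoter peaks of replicate 2 of each group. The sites of Atf3 and Trib3 lay within a peak of young EC-K4KO replicate 2, that of Nupr1 within a peak of old WT Cre replicate 1, and those of Chac1 and Asns in none. Of the ER stress response elements, that of Canx, with its flanks at chr11:50325792-50325826, lay whole within a peak of young EC-K4KO replicate 2, that of Pdia6 in part, and those of Syvn1 and Calr in none. The 11 genes with any element had a promoter peak 5, 3, 1 and 8 times (45.5, 27.3, 9.09 and 72.7%), and the 24 without had one 8, 10, 3 and 20 times (33.3, 41.7, 12.5 and 83.3%), beside 25.6, 24.5, 10.7 and 67.6% of all genes. A match describes these letters and is not a binding site.

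The wider pathway was covered by 46 further genes that include ER chaperones, oxidative folding, other parts of ERAD and amino acid metabolism. A promoter peak was found at 21, 15, 4 and 38 of them (45.7, 32.6, 8.70 and 82.6%) in the 4 libraries, beside 25.6, 24.5, 10.7 and 67.6% of all genes, which have the same order of libraries. In both old WT Cre libraries it was found at 9 (19.6%, beside 10.1% of all genes) and in both young EC-K4KO libraries at 3 (6.52%, beside 9.16%). Only Selenos, an ER membrane protein of the degradation complex, had one in all 4 libraries, with fold enrichments of 6.20, 5.22, 3.87 and 6.57.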

How the data were processed

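Pol II was immunoprecipitated from MNase-digested chromatin of flow-sorted brain ECs. Peaks were called by the authors per library with MACS 2.2.7.1, per the file headers, at q 0.01, with no control library and with all duplicates kept at this step. The deposited values are the pileup (a coverage signal in fragments), the fold enrichment (a ratio), and −log10 of the p-value and q-value of each peak. None was normalized between libraries. The smallest pileup called was 13 and 8 fragments in the old WT Cre replicates (0.198 and 0.291 per 1000000 fragments) and 9 and 7 in the young EC-K4KO replicates (0.255 and 0.308).

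Peaks were joined to protein-coding transcripts of GENCODE M21 basic on GRCm38 (mm10) in Python 3.11.15 with pandas 2.3.3, numpy 2.4.6, scipy 1.17.1, pysam 0.24.0 and samtools 1.23.1. A promoter peak overlaps the 1500 bp on either side of a TSS, and the best one has the highest fold enrichment. Weighted shares use 10 bins of gene length or CpG ratio. The overlaps of peaks with promoters and gene bodies were tested on simulated peaks. Groups come from the labels. The study's methods speak of biological replicates, but neither source used here says whether each library came from separate animals, and part of the spread may be technical. Values were named for genes with a promoter peak in at least 3 libraries or in both libraries of 1 group alone, for Ppp1r15a, and for core regulators and kinases. Other values, and the motif sites printed, were chosen after their values were seen. The rule for the genes uses no measured value, but the genes, lists and tests were chosen with earlier results of these data known. Alternatives were stricter q, fold enrichment of at least 4, lists of equal length, other TSS windows and leaving out libraries. Narrow peak and summit lists repeat these peaks and were not used, and the ATAC-seq and RNA-seq data were not analysed here.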

Additional observations from a re-analysis of the deposited data

How the results depend on the processing

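The number of listed genes with a promoter peak depended on the threshold. In old WT Cre replicate 1 it fell from 14 to 4 with a q-value of at most 1e-05, with a fold enrichment of at least 4 and with lists of equal length (the 35638 peaks with the best q-values of each library), while old WT Cre replicate 2 went from 13 to 10 with the stricter q and kept 13 with the others. In young EC-K4KO replicate 1 it fell from 5 to 1 with the stricter q and to 2 with the fold enrichment, and in young EC-K4KO replicate 2 from 31 to 11 with lists of equal length. Genes with a gene body peak went from 17 to 9 in old WT Cre replicate 1 with the fold enrichment and with equal lists, from 13 to 21 in old WT Cre replicate 2 when the promoter windows were counted with the gene, from 8 to 1 and 5 in young EC-K4KO replicate 1 with the stricter q and the fold enrichment, and from 26 to 12 in young EC-K4KO replicate 2 with equal lists. Genes found in both old WT Cre libraries fell from 6 to 3 with each of the 3 stricter rules, namely Eif2ak1, Herpud1 and Derl2. These are 7.69% of the list, beside 3.77, 4.58 and 4.74% of all genes. Genes found in both young EC-K4KO libraries fell from 5 to 1, 2 and 2 (2.56, 5.13 and 5.13%), beside 2.67, 5.52 and 5.24% of all genes. The share of listed genes in both young EC-K4KO libraries thus turned from above to just below that of all genes. With 1 library left out, the lone old WT Cre library held 13 to 14 genes and the lone young EC-K4KO library 5 to 31. The difference in scaled Gadd45a pileup ran from -0.0203, without young EC-K4KO replicate 2, to 0.287. The cause was not tested beyond what these rules remove by construction. The other 52 recomputed values stayed within 1.5 times of the reported value or, for Gadd45a, kept their direction. No paired analysis was possible because the replicate numbers come with no shared animal, litter or day, and presence of a peak is no fitted value. Best promoter peaks of 8 to 44 fragments and gene body peaks of 7 to 62 limit what could be called, and each group has 2 libraries.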

Other observations

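The old WT Cre libraries held 14 and 13 listed genes with a promoter peak, and partly different ones. With stricter rules these counts parted to 4 and between 10 and 13. The shares over all genes parted too, to 11.7 and 21.4% with a fold enrichment of at least 4 and to 11.8 and 22.6% with lists of equal length. With the stricter q they were 15.1 and 13.4%. Replicate 1 alone held 8 (Eif2ak2, Ppp1r15a, Ppp1r15b, Atf3, Nupr1, Xbp1, Canx and Pdia4), replicate 2 alone 7 (Eif2b1, Atf4, Atf5, Ddit4, Trib3, Asns and Sesn2) and both held 6. The shared genes are 42.9% of those of replicate 1 and 46.2% of those of replicate 2, beside 39.5 and 41.3% over all genes, so that this share was near the background. Atf4, Ddit4, Trib3, Asns and Sesn2 were held by replicate 2, while Atf3 and Nupr1, which ATF4 also induces, and both phosphatase subunits were held by replicate 1. With each of the 3 stricter rules Atf3, Nupr1 and both phosphatase subunits lost their peak in replicate 1, and with a window of 3000 bp replicate 2 held Atf3 too. This split was noticed in the data and was not tested. Of the wider pathway, Dnajb9, Pdia5, Vcp, Creb3, Impact, Vldlr, Psat1 and Slc3a2 had a promoter peak in 3 libraries (8 of 46 genes, 17.4%, beside 10.9% of all genes), and 6 of the 46 had one in none (13.0%, beside 25.4%).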
